A study of Mus musculus with 6 samples.

Results

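The genes of the G1 phase examined here were the D-type cyclins Ccnd1, Ccnd2 and Ccnd3, the E-type cyclins Ccne1 and Ccne2, the cyclin-dependent kinases Cdk4, Cdk6 and Cdk2, the retinoblastoma gene Rb1 and its relative Rbl1. They were measured in carotid arteries of SMC-IRF9-TG mice and of non-transgenic (NTG) controls. Every probe set that the array annotation pairs with exactly 1 of these symbols was taken, which gave 30 probe sets of 10 genes out of 45037 probe sets tested and 18193 genes named. Ccnd2 had 7 probe sets, Rbl1 had 4, Ccnd1, Ccnd3, Cdk4 and Cdk6 had 3 each, Ccne1, Cdk2 and Rb1 had 2 each, and Ccne2 had 1.

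SMC-IRF9-TG mice carry the mouse IRF9 cDNA, which encodes an interferon regulatory factor, under the SM22α promoter that is active in smooth muscle cells. The labels do not say which transgenic line was on the arrays. The study states that the line with its largest increase in arterial IRF9 protein was used for later evaluations of phenotype. Both groups are labelled C57BL/6, were males of 10 to 12 weeks by the study's description, and had the carotid artery injured with a guidewire 14 days before collection, so no uninjured artery was among the arrays. Each of the 3 SMC-IRF9-TG and 3 NTG samples was a pool of 3 to 5 vessels, and 400 ng of its total RNA was labelled for 1 Affymetrix array. The labels do not say which animals entered a pool, so a p-value here reflects how far pools of 1 group differ among themselves. The driven gene itself does not check the labels, because it is not known whether its only probe set lies inside the inserted cDNA. Irf9 read 5.46, 5.41 and 5.58 in SMC-IRF9-TG pools 1, 2 and 3, against 4.75, 5.43 and 5.36 in the NTG pools (adjusted p = 0.436 by limma).

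A resting cell that receives a growth signal makes D cyclins, which bind Cdk4 and Cdk6. The active kinases place phosphate on the retinoblastoma protein and its relatives p107 and p130, known as pocket proteins, and these then release the E2F transcription factors they hold. Freed E2F factors switch on genes of DNA synthesis and the E cyclins, which bind Cdk2 and complete the step into S phase. Smooth muscle cells of a healthy artery rarely divide, and after injury they can enter this cycle and build a neointima.

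The deposited values are log2 levels made by robust multi-array averaging (RMA), and every difference below is the SMC-IRF9-TG mean minus the NTG mean on that scale. A probe set was called higher or lower when its limma adjusted p, corrected over all 45037 probe sets, was under 0.05. Of the 30 probe sets, 9 were called higher, 1 was called lower and 20 missed the threshold. Over all probe sets 2.37% were called higher and 0.373% lower. The median difference was 0.58 over the 30 and -0.13 over all probe sets. In 15 of the 30 every SMC-IRF9-TG pool lay above every NTG pool, in 3 every one lay below, and in 12 the groups overlapped. Over all probe sets 12.1% lay apart upwards and 19.2% downwards. With 3 pools against 3, an exact permutation test of any probe set whose groups lay apart gives its smallest 2-sided p, 0.1. By the probe set of highest mean over all arrays, called the brightest here, Ccnd1, Ccne2, Cdk4 and Cdk6 were higher, Rbl1 was lower and the other 5 genes missed the threshold, where 3.11% of all named genes were higher and 0.511% lower.

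**Figure D1:**
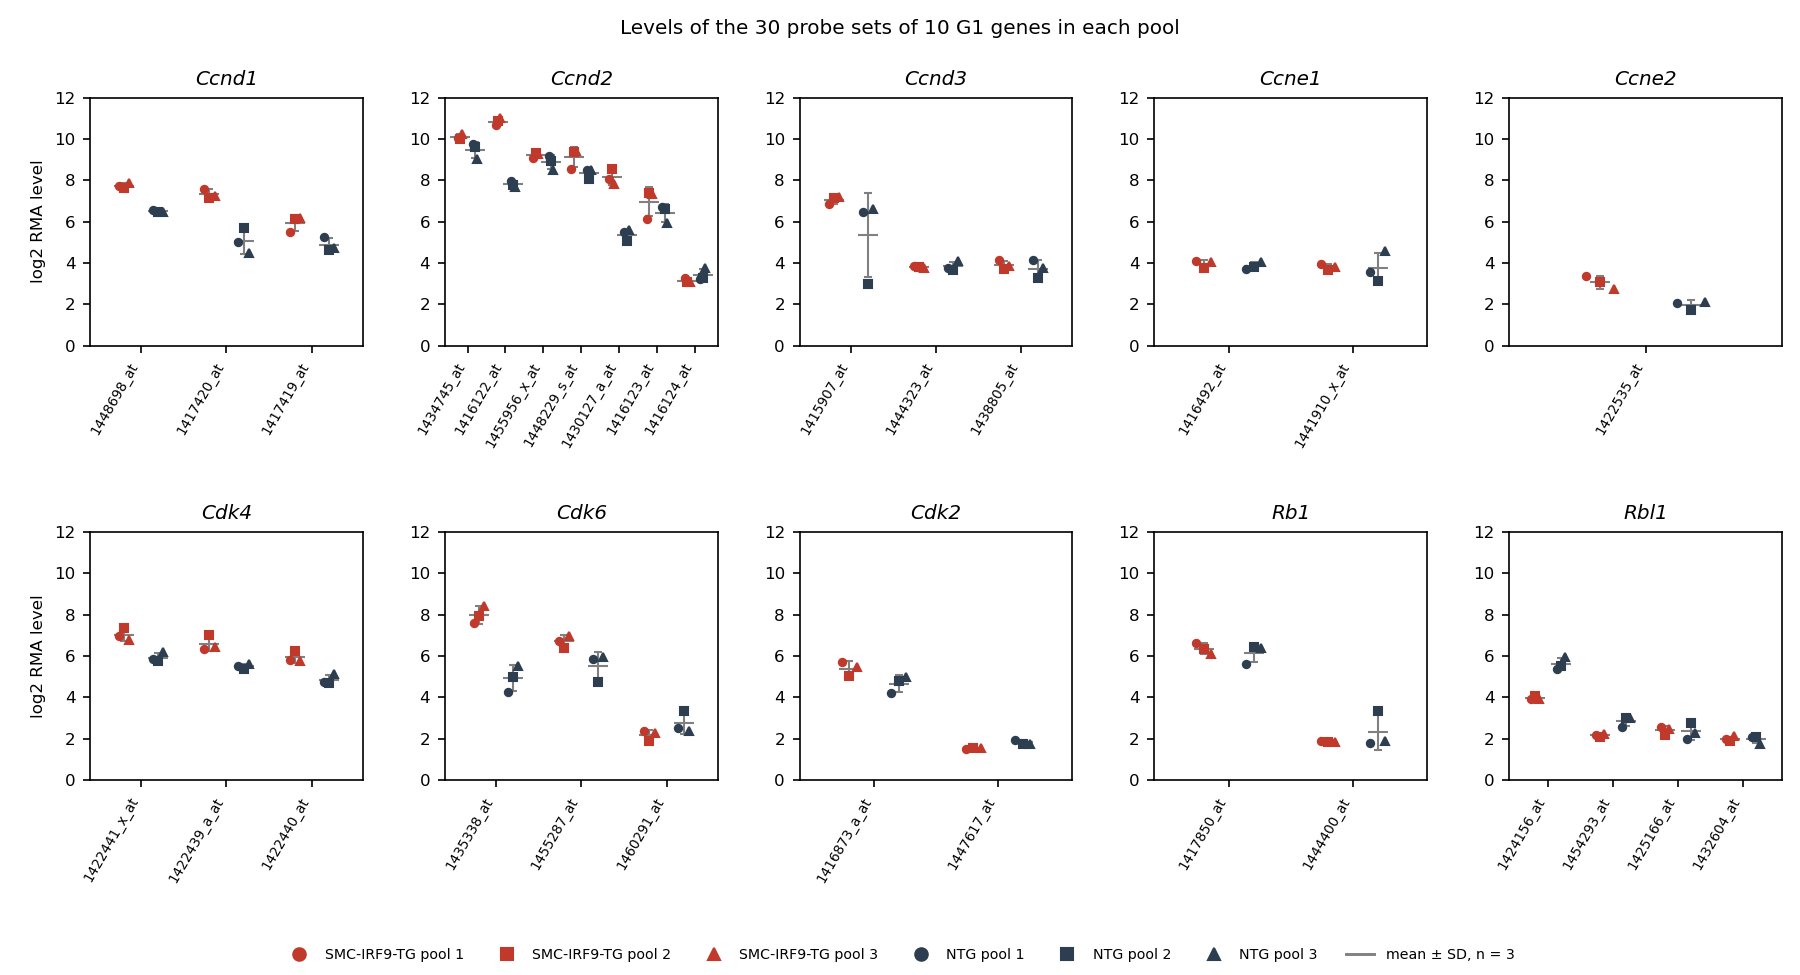
Log2 RMA level (y axis) of the 30 probe sets (x axis, one panel per gene) in each of the 3 SMC-IRF9-TG pools (red, left) and 3 NTG pools (dark, right), with bars for the mean and SD. The groups stand clear of each other in all probe sets of Ccnd1, Ccne2, Cdk4 and Cdk2, in opposite directions for Cdk2. They also do so in some of Ccnd2, Ccnd3, Cdk6 and Rbl1, while they overlap in both probe sets of Ccne1 and of Rb1.

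Other features of the arrays moved with genotype. Of 12 macrophage markers 11 were higher, and their summed linear level was 4034 to 5412 in SMC-IRF9-TG pools and 196 to 339 in NTG pools. The defining macrophage markers Adgre1 and Csf1r were among the 11, while Itgam stayed at 2.20 to 2.27 and 2.04 to 2.13. Of 7 fibroblast markers 5 were higher, with sums of 12943 to 13402 and 3096 to 3835. None of the 10 smooth muscle markers passed by limma (0 at an unadjusted p under 0.05), and their sums were 23110 to 24338 and 16317 to 23696. Acta2, the smooth muscle actin gene, lay at 13.48 to 13.63 in SMC-IRF9-TG pools and 13.28 to 13.60 in NTG pools. Of the endothelial, T cell, B cell, neutrophil, adipocyte, skeletal muscle, nerve and thyroid lists only 1 endothelial marker passed by limma (10 at an unadjusted p under 0.05), and the 4 neutrophil markers had sums of 59 to 1663 and 42 to 63. Xist, the RNA of the silenced X chromosome in females, read 2.94 to 3.72 in SMC-IRF9-TG pools and 9.94, 9.50 and 4.08 in NTG pools 1, 2 and 3. The high readings of NTG pools 1 and 2 go against the study's description of all mice as male. Apparent sex is therefore partly confounded with genotype, and the labels do not give the sex of the animals in a pool. The 15 poly-A spike control probe sets averaged 4.33, 3.95 and 7.53 in pools 1, 2 and 3 of SMC-IRF9-TG arteries and 9.72, 6.36 and 8.31 in those of NTG arteries. NTG pool 2 stood apart in the gap between 3′ and 5′ probe sets of Actb, at 7.09, where the SMC-IRF9-TG pools read 1.56 to 2.50 and the other NTG pools 2.21 and 3.04. The spread of values within an array differed by genotype as well. Lower quartiles were 2.33 to 2.41 in SMC-IRF9-TG and 2.57 to 2.66 in NTG arrays, and upper quartiles were 5.25 to 5.33 and 4.97 to 5.08. The part of these features in the differences of the G1 genes was not tested. Fits with a block for high Xist or for low poly-A controls are given at the end, and each leaves only 1 pool of 1 group to compare. In whole-artery RNA, fewer cells of a type and less RNA per cell cannot be told apart.

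Cyclin D1 and cyclin D2 are the partners through which growth signals reach Cdk4 and Cdk6. Both genes had probe sets that were clearly higher in SMC-IRF9-TG arteries, and for Ccnd2 the size depended on the probe set. Ccnd1 (chromosome 7, 144929931 to 144939831 in GRCm38.p6) read 7.71, 7.60 and 7.87 in SMC-IRF9-TG pools, against 6.54, 6.46 and 6.47 in NTG pools by its brightest probe set, 1448698_at. The groups did not overlap, and the NTG pools lay within 0.1 of each other. This was a 2.35-fold level (difference 1.23, 95% interval 0.82 to 1.65, adjusted p = 0.013). By 1417420_at the pools read 7.58, 7.12 and 7.23, against 4.99, 5.69 and 4.47. These groups were further apart and the NTG pools more scattered, with a 4.80-fold level (difference 2.26, 1.55 to 2.98, adjusted p = 0.00993). The third, 1417419_at, read 5.51, 6.11 and 6.18 against 5.24, 4.64 and 4.74, again without overlap, and did not pass (difference 1.06, 0.46 to 1.65, adjusted p = 0.0748). The call of 1417420_at held in 15 of 17 alternatives, among them all 6 fits that left out 1 pool. That of 1448698_at held in 9 of the 17 and in 3 of these 6 fits. It was lost without any one SMC-IRF9-TG pool (adjusted p of up to 0.0765). After a further quantile normalization 1448698_at differed by 0.94 and was not called (adjusted p = 0.0589 by limma).

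Ccnd2 (chromosome 6, 127125162 to 127152188) encodes cyclin D2, and its 7 probe sets fell into 2 kinds. By 1416122_at it read 10.67, 10.84 and 11.00 in SMC-IRF9-TG pools, against 7.97, 7.79 and 7.68 in NTG pools, an 8.14-fold level (difference 3.03, 2.58 to 3.47, adjusted p = 3.84e-04). By 1430127_a_at it read 8.04, 8.57 and 7.83 against 5.47, 5.05 and 5.59, a 6.83-fold level (difference 2.77, 2.19 to 3.35, adjusted p = 0.00186). These were the only Ccnd2 probe sets that passed, and every SMC-IRF9-TG pool exceeded every NTG pool by more than 2 units in both. The brightest Ccnd2 probe set, 1434745_at, read 10.04, 9.99 and 10.26 against 9.77, 9.61 and 9.02, a 1.55-fold level that did not pass (0.63, 0.08 to 1.18, adjusted p = 0.182). Here too the groups lay apart, by a narrow margin and with NTG pool 3 the lowest. The remaining Ccnd2 probe sets did not pass and spanned differences from -0.28 to 0.76. Of these, 1448229_s_at lay apart (8.55, 9.37 and 9.41 against 8.49, 8.07 and 8.48, adjusted p = 0.166), while 1455956_x_at, 1416123_at and 1416124_at overlapped. In 1416123_at, SMC-IRF9-TG pool 1 read 6.14, within the NTG range of 5.92 to 6.72, and pools 2 and 3 read 7.40 and 7.33.

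The 2 kinds of Ccnd2 probe set were compared directly, by the gap between each probe set and 1434745_at on the same array. For 1416122_at the gap was 0.63, 0.85 and 0.74 in SMC-IRF9-TG pools, against -1.80, -1.82 and -1.34 in NTG pools. The gap was larger in every SMC-IRF9-TG pool than in any NTG pool. Levels of different probe sets cannot be ranked against each other, so only the change of a gap between genotypes is read. It was 2.40 (1.78 to 3.01, adjusted p = 0.00512 by limma over 16752 probe set pairs of all genes), and it passed in 5 of the 6 fits without 1 pool (0.0511 without SMC-IRF9-TG pool 2). For 1430127_a_at the gap was -2.00, -1.42 and -2.43 against -4.30, -4.56 and -3.42, a change of 2.14 (1.27 to 3.01, adjusted p = 0.0247). This call was less firm, since it held without NTG pool 2 or NTG pool 3 only and was lost without NTG pool 1 or any one SMC-IRF9-TG pool (adjusted p of up to 0.129). The other 4 gaps of Ccnd2 did not pass, with changes from -0.91 to 0.13. Where on the Ccnd2 transcripts each probe set lies is not given in the sources used here. When the 7 probe sets were averaged the difference was 1.11 (adjusted p = 0.0155).

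**Figure D2:**
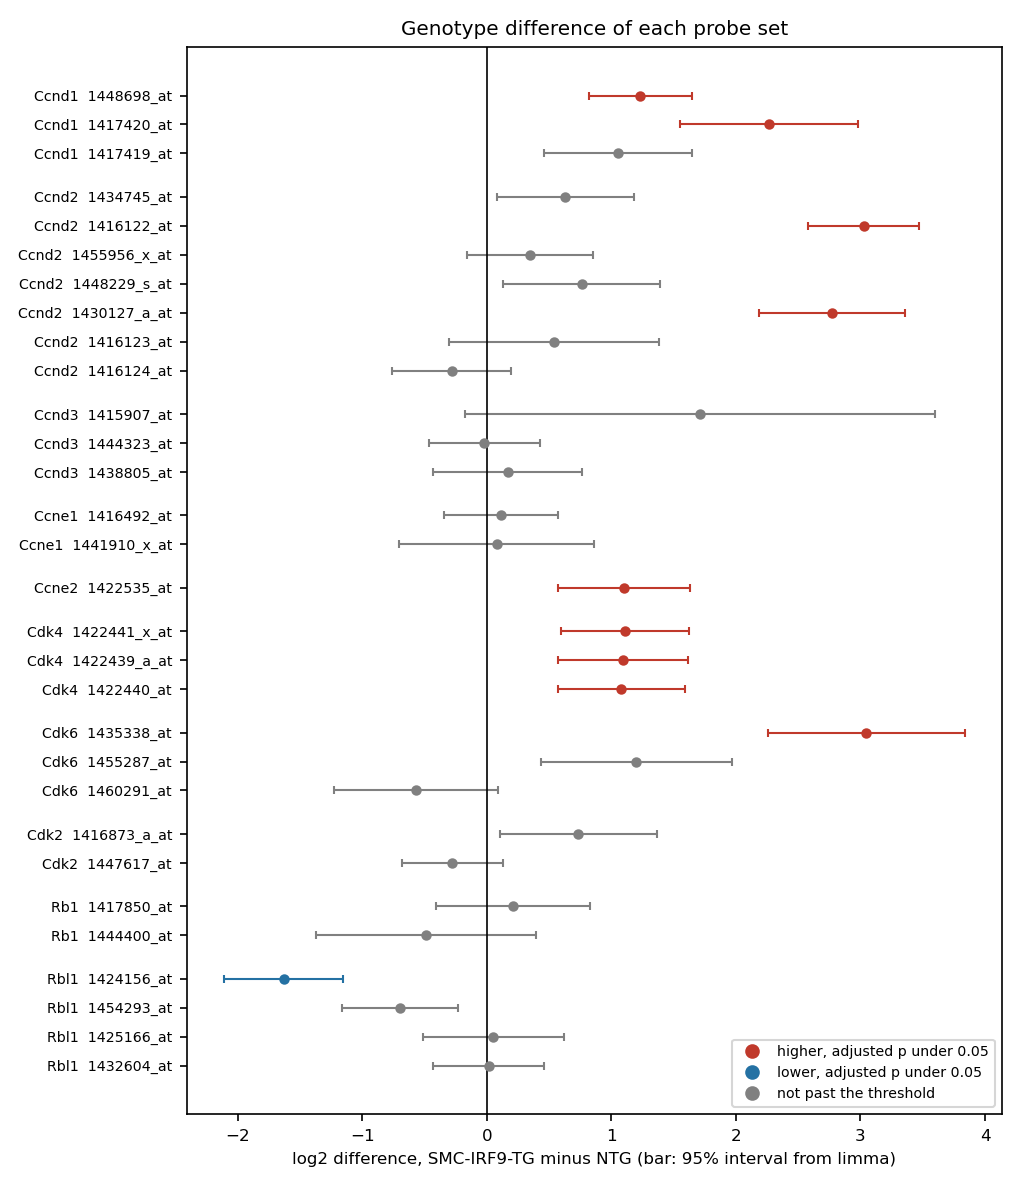
Log2 difference, SMC-IRF9-TG minus NTG (x axis), of the 30 probe sets (y axis, grouped by gene from brightest to dimmest), with points for the estimate and bars for the 95% interval from limma. Probe sets of Cdk4 share nearly 1 value, while those of Ccnd2 run from -0.28 to 3.03 and those of Cdk6 from -0.57 to 3.05.

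Ccnd3 (chromosome 17, 47505051 to 47599689), the third D cyclin, did not pass by any of its 3 probe sets. By 1415907_at it read 6.84, 7.15 and 7.19 in SMC-IRF9-TG pools, against 6.45, 3.00 and 6.60 in NTG pools. The groups lay apart, but NTG pool 2, the array with the wide 3′ to 5′ gap, was 3.53 below the mean of the other NTG pools. With it the difference was 1.71 (-0.18 to 3.60, adjusted p = 0.256), and without it 0.53 (adjusted p = 0.150). The other probe sets, 1444323_at and 1438805_at, overlapped between groups, with differences of -0.02 (-0.46 to 0.43) and 0.17 (-0.43 to 0.77).

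The E cyclins act after the D cyclins and bind Cdk2. Ccne1 (chromosome 7, 38097984 to 38107490) overlapped between groups by both probe sets. It read 4.11, 3.76 and 4.04 in SMC-IRF9-TG pools, against 3.72, 3.80 and 4.06 in NTG pools by 1416492_at (difference 0.11, -0.35 to 0.57, adjusted p = 0.748). By 1441910_x_at the difference was 0.08 (-0.70 to 0.86). Ccne2 (chromosome 4, 11190433 to 11204779) has a single probe set, 1422535_at, which read 3.38, 3.07 and 2.75 against 2.06, 1.70 and 2.13. The groups lay apart and the probe set was called higher (adjusted p = 0.0470), but the NTG mean of 1.97 is under the lower quartile of the NTG arrays, 2.57 to 2.66, so the size is not known. The Ccne2 call was lost in each of the 6 fits without 1 pool (adjusted p of 0.0526 to 0.195).

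Cdk4 and Cdk6 are the catalytic partners of the D cyclins. Both were higher in SMC-IRF9-TG arteries, Cdk4 by about 1 log2 unit in all 3 probe sets and Cdk6 by about 3 in 1 of its 3. Cdk4 (chromosome 10, 127063535 to 127067288) read 6.94, 7.35 and 6.79 in SMC-IRF9-TG pools, against 5.85, 5.74 and 6.17 in NTG pools by 1422441_x_at (2.16-fold, difference 1.11, 0.59 to 1.62, adjusted p = 0.0418). By 1422439_a_at it read 6.33, 7.0 and 6.45 against 5.50, 5.39 and 5.61 (2.14-fold, adjusted p = 0.0451). By 1422440_at it read 5.82, 6.24 and 5.74 against 4.75, 4.69 and 5.12 (2.11-fold, adjusted p = 0.0444). All groups lay apart, and SMC-IRF9-TG pool 2 was the highest in each. The gap from 1422440_at to 1422441_x_at was -1.12, -1.11 and -1.05 in SMC-IRF9-TG pools, against -1.10, -1.05 and -1.04 in NTG pools, a change of -0.03 (-0.59 to 0.53, adjusted p = 0.959). Cdk4 was the only gene with several probe sets in which all of them passed. The 3 calls were close to the threshold, and they held in 1, 0 and 1 of the 6 fits without 1 pool, with adjusted p of up to 0.177, 0.167 and 0.185. They were not past the threshold after a further quantile normalization (0.120, 0.118 and 0.101). The same held with a trended and robust variance prior in limma (0.0572, 0.0625 and 0.0643) and with array weights (0.0535, 0.0652 and 0.0517). With a block for replicate number the values were 0.0968, 0.0927 and 0.0994. Of 17 alternatives, these fits included, the calls held in 4, 3 and 4.

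The Cdk4 promoter, from 250 bases before to 50 after the gene's start in RefSeq (chr10:127063285-127063584, plus strand, GRCm38.p6), is shown because it holds 4 copies of CACGTG, the E-box that factors such as Myc bind, in capitals.
Cdk4: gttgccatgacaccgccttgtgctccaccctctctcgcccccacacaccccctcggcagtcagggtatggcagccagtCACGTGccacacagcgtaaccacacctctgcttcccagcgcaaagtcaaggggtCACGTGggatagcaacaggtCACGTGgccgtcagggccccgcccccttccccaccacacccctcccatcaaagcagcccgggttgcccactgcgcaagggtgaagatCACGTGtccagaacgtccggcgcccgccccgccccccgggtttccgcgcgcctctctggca
CACGTG reads the same on both strands. It occurs in 2349 of 32851 RefSeq promoters of this length (7.15%), among them those of Cdk4 and Cdk6 in the 7 promoters that matched 6 of the 10 genes. No promoter was matched for Ccnd1, Ccnd2, Ccne2 and Rb1. On either strand, neither the AP-1 site TGANTCA (7.81% of promoters) nor 2 copies of GAAA with 2 bases between them, the core of the interferon-stimulated response element (3.44%), occurs in the 7. A match is a description of the letters, and binding was not measured here.

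Cdk6 (chromosome 5, 3341004 to 3531008) read 7.60, 7.92 and 8.43 in SMC-IRF9-TG pools, against 4.27, 5.00 and 5.53 in NTG pools by its brightest probe set, 1435338_at. All 3 SMC-IRF9-TG pools were more than 2 units above the highest NTG pool, an 8.27-fold level (difference 3.05, 2.26 to 3.84, adjusted p = 0.00461), and the call held in all 6 fits without 1 pool. By 1455287_at the pools read 6.74, 6.39 and 6.98, against 5.83, 4.74 and 5.95. The groups lay apart by less, and the difference did not pass (1.20, 0.43 to 1.96, adjusted p = 0.102). The dim 1460291_at read 2.39, 1.89 and 2.26 against 2.50, 3.35 and 2.39, with its SMC-IRF9-TG mean under the lower quartile of those arrays and overlapping groups (adjusted p = 0.276).

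The gap from 1460291_at to 1435338_at was -5.20, -6.03 and -6.17 in SMC-IRF9-TG pools, against -1.77, -1.65 and -3.15 in NTG pools, a change of -3.61 (adjusted p = 0.00732, and 0.0638 without SMC-IRF9-TG pool 2). Since 1460291_at lies near the floor of the arrays, this gap moves with 1435338_at. The gap from 1455287_at, which is well above that floor, was -0.85, -1.53 and -1.45 against 1.56, -0.26 and 0.41. The groups did not overlap, and the change of -1.85 (-2.86 to -0.83) missed the threshold with all 6 arrays (adjusted p = 0.0546). Of the 6 fits without 1 pool it passed in 1, without NTG pool 2 (-2.26, adjusted p = 0.0210), and missed in the other 5, with adjusted p of up to 0.216. The mean of the 3 Cdk6 probe sets differed by 1.23 (adjusted p = 0.0155).

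Cdk2 (chromosome 10, 128697938 to 128705051), the kinase of the E cyclins, read 5.72, 5.01 and 5.44 in SMC-IRF9-TG pools, against 4.19, 4.79 and 4.98 in NTG pools by 1416873_a_at. The groups were apart by a narrow margin and the difference did not pass (0.73, 0.10 to 1.36, adjusted p = 0.177). Its other probe set, 1447617_at, lay under the lower quartile of every array, at 1.50 to 1.56 and 1.75 to 1.94 (adjusted p = 0.373). There the groups lay apart in the other direction, with every SMC-IRF9-TG pool below every NTG pool.

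**Figure D3:**
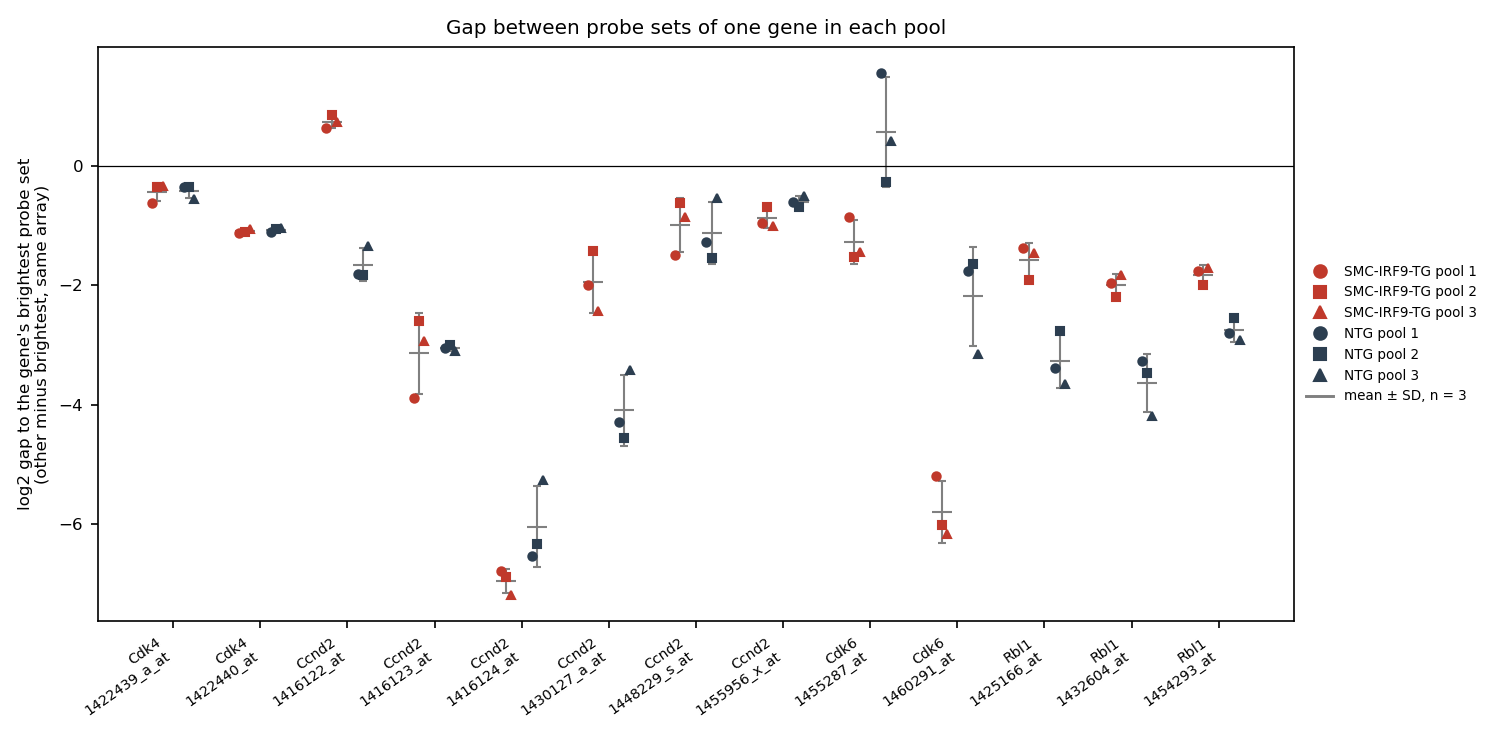
Log2 gap between a probe set and the brightest probe set of its gene on the same array (y axis) for the 13 gaps of Cdk4, Ccnd2, Cdk6 and Rbl1 (x axis), in SMC-IRF9-TG pools (red, left) and NTG pools (dark, right), with bars for the mean and SD of 3 pools. The Cdk4 gaps coincide between groups, while the gap of Ccnd2 1416122_at is 0.63 to 0.85 in the SMC-IRF9-TG pools and -1.82 to -1.34 in the NTG pools.

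The pocket proteins are the substrates of these kinases. Rb1 (chromosome 14, 73192858 to 73325951) did not pass, and Rbl1, which encodes p107, was lower by its brightest probe set. Rb1 read 6.64, 6.32 and 6.10 in SMC-IRF9-TG pools, against 5.63, 6.44 and 6.36 in NTG pools by 1417850_at, with overlapping groups (difference 0.21, -0.41 to 0.83, adjusted p = 0.646). By 1444400_at it read 1.84 to 1.89 in SMC-IRF9-TG pools and 1.78, 3.35 and 1.90 in NTG pools. The difference of -0.49 came from NTG pool 2, and was 0.02 without that pool.

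Rbl1 (chromosome 2, 157145893 to 157204534) read 3.93, 4.08 and 3.94 in SMC-IRF9-TG pools, against 5.37, 5.54 and 5.94 in NTG pools by 1424156_at. All SMC-IRF9-TG pools lay more than 1 unit below all NTG pools, a 3.10-fold lower level (difference -1.63, -2.11 to -1.15, adjusted p = 0.00786), and the call held in all 6 fits without 1 pool. The called probe sets of Rbl1, Cdk6 and Ccnd2 are also on a list that the study drew from these same arrays, so their place there is not independent evidence. That list gives the Ccnd2 probe set with the largest difference as cyclin D1, while the array annotation used here pairs it with Ccnd2. The study has other evidence, which was not examined here. It measured genes of the list by real-time PCR, with primers for Ccnd1, Ccnd2, Cdk6 and Rbl1, and reports that PCR bore out the arrays. It also reports more cyclin D1 protein in injured SMC-IRF9-TG arteries. The other 3 Rbl1 probe sets did not pass, and each had a group mean under the lower quartile of its arrays. Of these, 1454293_at read 2.17, 2.08 and 2.24 against 2.57, 2.99 and 3.02, below in every SMC-IRF9-TG pool (adjusted p = 0.110). By 1425166_at and 1432604_at the groups overlapped, with differences of 0.05 and 0.02. Their gaps to 1424156_at changed by 1.68 (adjusted p = 0.0287) and 1.65 (adjusted p = 0.0294), and these held in 2 and 3 of the 6 fits without 1 pool (adjusted p of up to 0.133 and 0.130). Both lie near the floor of the arrays, so these gaps move with 1424156_at. The mean of the 4 probe sets gave -0.56, short of the threshold (adjusted p = 0.0970). Rbl2, the gene of the third pocket protein p130 and not one of the 10, read 6.02, 5.49 and 5.47 against 4.49, 5.32 and 4.93, and did not pass (0.75, adjusted p = 0.166).

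The Rbl1 promoter (RefSeq, chr2:157204485-157204784, minus strand, GRCm38.p6) is shown because it alone of the 7 matched promoters holds TTTCGCGC, a form of the site that E2F factors bind, in capitals.
Rbl1: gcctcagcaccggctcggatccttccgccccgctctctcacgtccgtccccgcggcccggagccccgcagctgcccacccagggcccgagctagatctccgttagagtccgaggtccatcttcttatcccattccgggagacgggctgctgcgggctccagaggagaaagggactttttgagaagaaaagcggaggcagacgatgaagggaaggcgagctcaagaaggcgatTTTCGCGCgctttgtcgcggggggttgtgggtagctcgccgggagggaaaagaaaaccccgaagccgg
The site begins at -18 relative to the gene's start. Searched on both strands, TTTCGCGC occurs in 106 of the 32851 promoters (0.323%). The related form TTTGGCGC occurs in 0.514% and in none of the 7, so no site marked here overlaps another.

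Over all 10 genes, disagreement between probe sets was also set against that of all genes. Of the 20 gaps between the brightest and another probe set in the 9 genes with several, 5 changed with genotype, where 4.08% of all 16752 gaps did. Of these 5, 3 were taken to the dim probe sets of Cdk6 and Rbl1 described above and add nothing to the call of the brightest probe set. With probe sets below the median level left out, 2 of 13 gaps changed, both of Ccnd2, where 151 of 7371 did over all genes. The signs of the paired differences were opposite in 7 of the 20, against 42.3% of all gaps. In 8 of the 11 pairs with a called probe set only 1 of the pair was called, against 88.8% of such pairs over all genes. Neither of these last counts is above the share over all genes. The pools did not share equally in the scatter. NTG pool 2 was more than 1 unit from the mean of the other pools of its group in 3 of the 30 probe sets, NTG pool 3 in 2, NTG pool 1 and SMC-IRF9-TG pool 1 in 1 each, and the other SMC-IRF9-TG pools in none. Without NTG pool 2, 5 probe sets were higher and 1 was lower. These were the Ccnd1, Ccnd2, Cdk6 and Rbl1 probe sets already named as called, while those of Cdk4 and Ccne2 no longer passed. The number higher was 5 without NTG pool 1, 7 without NTG pool 3 and 4 without any one SMC-IRF9-TG pool.

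Genes that work with the G1 cyclins were then examined, each by its brightest probe set. Of 55 measured, 5 were called higher, 2 were called lower and 48 missed the threshold, where 3.11% of all named genes were higher and 0.511% lower. They had a median difference of 0.38, against -0.05 over all named genes and 0.92 over the 10 genes. Of the 48 that missed, 4 had a dimmer probe set that was called, 3 higher (Ccna2, Cks1b and E2f5) and 1 lower (Cdkn1a), which are described with their lists. The matching share over all genes was not computed, so this count is not read as a result about the lists. Over all genes, 88.8% of probe set pairs with a call had only 1 of the 2 called. The 15 E2F target genes of S phase had 4 members higher, none lower, and a median of 0.67. Pcna, the sliding clamp of DNA polymerase, read 10.35, 10.93 and 10.18 in SMC-IRF9-TG pools, against 7.12, 7.88 and 7.48 in NTG pools (difference 2.99, adjusted p = 0.00186). Rrm2, a subunit of ribonucleotide reductase, read 6.02, 6.00 and 5.88 against 3.20, 3.07 and 3.62 (2.67, adjusted p = 9.24e-04). In both, the lowest SMC-IRF9-TG pool stood more than 2 units above the highest NTG pool. Mcm5, of the replicative helicase, differed by 1.59 (adjusted p = 0.0152) and Tk1, thymidine kinase, by 1.52 (adjusted p = 0.0253), also without overlap. Pcna and Tk1 have 1 probe set each. Rrm2 and Mcm5 have 3 each, of which 2 of Rrm2 and 1 of Mcm5 were called. Ccna2, the cyclin of S phase, missed by its brightest probe set (1.39, adjusted p = 0.129) and was higher by 1417910_at (2.30, adjusted p = 0.00724).

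Among the inhibitors of cyclin-dependent kinases, 2 of 7 were lower and none was higher. The product of Cdkn2b and 1 of the products of Cdkn2a are inhibitors that act on Cdk4 and Cdk6. Which Cdkn2a transcripts its only probe set reads is not known here. Cdkn2a read 2.48, 2.13 and 2.46 in SMC-IRF9-TG pools, against 4.43, 4.59 and 4.52 in NTG pools (difference -2.16, adjusted p = 0.00169). The SMC-IRF9-TG values lie about the lower quartile of those arrays, 2.33 to 2.41, so the size is not known. Cdkn2b read 4.62, 4.36 and 4.19 against 6.27, 5.93 and 5.92 (-1.65, adjusted p = 0.00722). Neither overlapped between groups. The brightest probe sets of the other 5 inhibitors had positive differences that did not pass. Cdkn1a, the p21 gene and the member of highest mean, gave opposite directions by its 2 probe sets. By the brightest it averaged 8.61 ± 0.48 and 7.48 ± 0.44 (SD, n = 3 each, difference 1.12, adjusted p = 0.0984). By 1421679_a_at it read 5.00, 5.10 and 5.25 in SMC-IRF9-TG pools, against 7.55, 7.33 and 7.20 in NTG pools, and was called lower (difference -2.24, -2.68 to -1.80, adjusted p = 0.00148). The groups lay apart in both probe sets, upwards in 1 and downwards in the other, so no single direction can be given for Cdkn1a. The called probe sets of Cdkn1a, Cdkn2a, Cdkn2b and Pcna are also on the list that the study drew from these arrays.

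Of the 10 E2F and DP factors, Tfdp1, the dimer partner of most E2F proteins, was the only member called by its brightest probe set. It read 7.03, 6.58 and 6.64 in SMC-IRF9-TG pools, against 5.00, 5.93 and 4.82 in NTG pools (difference 1.50, adjusted p = 0.0430), without overlap. The members of highest mean, E2f5 and Tfdp2, both lay at a difference of -0.26 by their brightest probe sets. E2f5 was higher by another, 1417444_at, at 4.49, 4.60 and 4.32 against 2.84, 3.09 and 3.67 (difference 1.27, adjusted p = 0.0358). Some products of the MuvB, B-Myb and FoxM1 list work with the pocket proteins. In this list none of 7 passed by limma (2 at an unadjusted p under 0.05), and the median was 0.05. Those of highest mean were Rbbp4, at a difference of 0.11, and Foxm1, at -0.54. By limma, none of the 6 genes that activate the kinases passed (1 at an unadjusted p under 0.05, median 0.13), with Ccnh and Cdk7 of the activating kinase complex at 0.47 and -0.05. By their brightest probe sets, none of the 9 genes of G1 cyclin degradation passed by limma (1 at an unadjusted p under 0.05, median 0.38), with Skp1 and Cul1 of the ubiquitin ligase at 0.50 and 0.35. Cks1b, which helps that ligase take up its substrates, differed by 0.38 by its brightest probe set (adjusted p = 0.415) and was higher by 1448441_at, at 6.13, 6.65 and 5.99 against 3.99, 4.72 and 4.56 (difference 1.84, adjusted p = 0.0126).

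**Figure D4:**
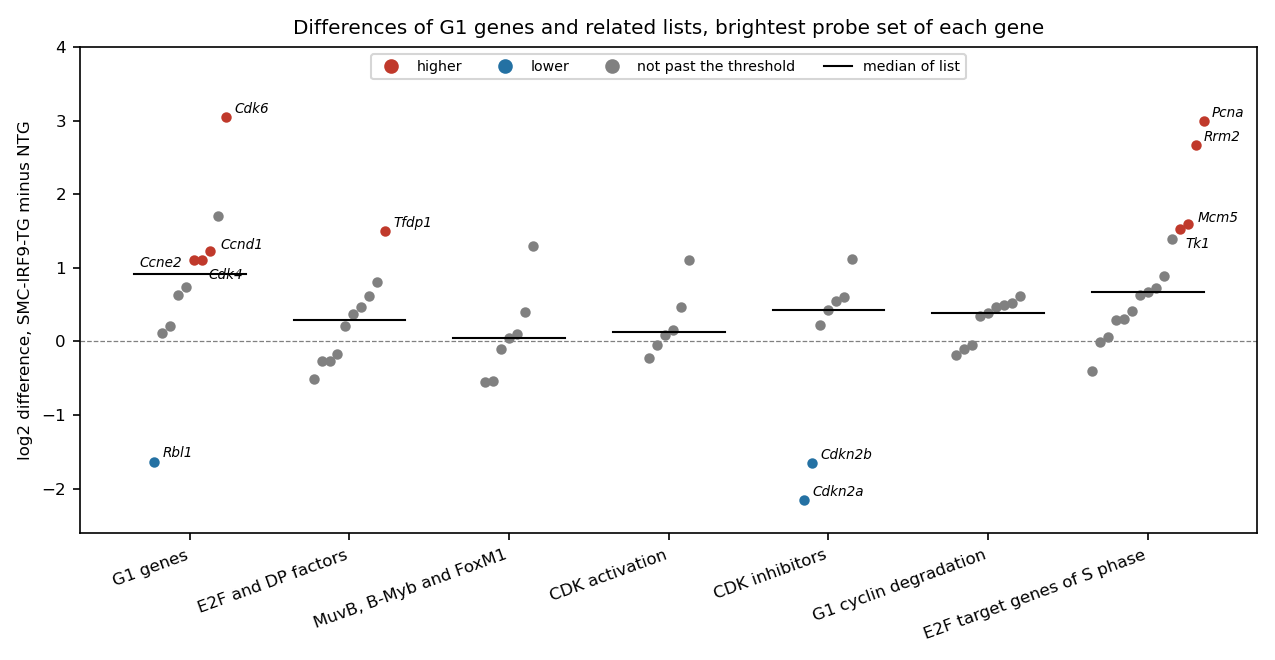
Log2 difference, SMC-IRF9-TG minus NTG (y axis), of the 10 G1 genes and 6 related lists (x axis), with 1 point per gene by its brightest probe set and a line at each list's median. Called genes are coloured and named, and the medians run from 0.05 for the MuvB list to 0.92 for the G1 genes.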

How the data were processed

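RNA of 6 pools of injured carotid arteries, 3 per genotype, was measured on 1 Affymetrix array each. The authors deposited log2 values, 1 per probe set and array, from RMA run in Affymetrix Expression Console (versions not stated in the labels or the paper). RMA subtracts background, brings arrays to a common distribution by quantiles and combines each set's probes. Array medians were 3.42 to 3.66, and nothing was added to this normalization. The quartiles of the deposited values still differed by genotype, as given above. Scanner files were not used here, so detection was not checked per probe set. The precision is limited by 3 arrays per group.

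Of 45101 probe sets, 64 controls were left out. By the annotation 34945 carry 1 symbol, 932 carry several and 9160 carry none, and only those with 1 symbol were named. The 2 genotypes were set against each other in limma 3.58.1 (lmFit, then eBayes, 2-sided, default settings) under R 4.3.3, with Benjamini-Hochberg adjustment over 45037 probe sets and no filter on dim ones. The study's methods name a t-test for its experiments and none for the arrays, and that test was an alternative. Gaps between the brightest and each other probe set of a gene were compared the same way over 16752 pairs in 9010 genes. Both fits were tested on simulated data first. Single probe sets were also compared by exact permutation. Promoters and gene positions came from RefSeq tables of GRCm38.p6.

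The 10 genes, the 6 pathway lists with Rbl2 (56 genes, 55 measured) and the 11 marker lists were chosen with earlier results of these data known. All probe sets of the 10 genes are named. Of the lists, members that passed and the 2 of highest mean are named, with Mcm7 at a difference of 0.72 (adjusted p = 0.090) and Cdkn1c at 0.43 (adjusted p = 0.701) among those chosen by their mean. Other called probe sets of list genes (Ccna2, Cdkn1a, Cks1b, E2f5) were named after their values were seen. The alternatives were median centring, quantile normalization, a dim filter, another variance prior, array weights, the t-test, a block for replicate number, leaving out each pool, other thresholds, the mean of a gene's probe sets, probe sets of suffix _s_at and _x_at left out, and blocks for arrays with high Xist or low poly-A controls. Same-numbered pools did not deviate together (r of -0.15, 0.00 and 0.03 over 45037 probe sets), so the numbers were not used as pairs. Python 3.11.15 with pandas 2.3.3 and matplotlib 3.10.9 made the tables and figures.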

Additional observations from a re-analysis of the deposited data

How the results depend on the processing

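Of the probe sets called, those of Ccnd2 (1416122_at, 1430127_a_at), Ccnd1 (1417420_at), Cdk6 (1435338_at) and Rbl1 (1424156_at) passed in every fit without 1 pool. Without 1 pool the counts were 4 to 7 higher, 1 lower, 2 to 4 genes by the brightest probe set, 0 to 8 gaps (0 without SMC-IRF9-TG pool 2, 8 without NTG pool 2) and 320 to 1851 of all probe sets. Against 9 higher, 1 lower, 5 genes, 5 gaps and 1237 of all probe sets with every array, quantile normalization gave 5 higher, 3 genes and 700 of all. Array weights gave 5 higher and 3 genes. The trended and robust variance prior gave 6 higher and 4 genes. The dim filter left 2 gaps, with fewer gaps tested. The methods' t-test gave 0 higher, 0 lower, 0 genes, 0 gaps and 1 of all after adjustment, and 11, 3, 5, 7 and 8364 at an unadjusted p under 0.05. At 0.01 there were 4 higher, 2 genes, 2 gaps and 291 of all, and at 0.1 there were 2864 of all. A block for high Xist, which leaves 1 NTG pool to compare, gave 3 higher, 1 gene, 0 gaps (9 unadjusted) and 192 of all. A block for low poly-A controls, which leaves 1 SMC-IRF9-TG pool to compare, gave 1 higher (Ccnd2 1416122_at), 0 lower, 0 genes, 0 gaps (12, 1, 5 and 7 unadjusted) and 55 of all. The cause of these shifts was not tested.

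With the replicate number as a block, which does not pair the pools, there were 5 higher, 3 genes and 730 of all. In this balanced design the block leaves every difference as it is and changes only its error.

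Signs turned only for values that did not pass. Ccnd3 1444323_at was 0.075 after centring, Rb1 1417850_at was -0.093 after quantile normalization, and the Cdk4 gaps were 0.020 (1422440_at, quantile) and 0.014 (1422439_a_at, array weights). Under the Xist block, Rb1 1417850_at was -0.0074, Ccne1 1416492_at was -0.085 and 1441910_x_at was -0.73, and the gaps of Cdk4 1422439_a_at and Ccnd2 1448229_s_at were 0.12 and -0.45. Under the poly-A block, Rb1 1417850_at was -0.045 and the gaps of Cdk4 1422440_at and 1422439_a_at and Ccnd2 1416123_at were 0.013, 0.082 and 0.12. Without 1 pool, differences ran from -0.048 to 0.36 for Rb1 1417850_at, -0.77 to 0.017 for 1444400_at, -0.13 to 0.27 for Rbl1 1425166_at, -0.10 to 0.081 for 1432604_at, -0.23 to 0.49 for Ccne1 1441910_x_at, -0.058 to 0.39 for Ccnd3 1438805_at and -0.10 to 0.10 for 1444323_at. Gaps ran from -0.081 to 0.077 for Cdk4 1422439_a_at, -0.080 to 0.43 for Ccnd2 1448229_s_at, -0.36 to 0.29 for 1416123_at, -0.31 to 0.28 for Ccne1 1441910_x_at and -0.33 to 0.024 for Ccnd1 1417419_at.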
